A study of Homo sapiens with 20 samples.

Results

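The genes described here encode the histone demethylase LSD1, its paralogue and the core of the CoREST complex, and they were measured by RNA-seq in LNCaP cells, a human prostate adenocarcinoma line. The members are KDM1A, KDM1B, RCOR1, RCOR2, RCOR3, HDAC1, HDAC2, PHF21A, HMG20B and ZMYM2, chosen by their names and found by gene symbol in both count tables. All 10 were present, among 57773 listed genes, and all 10 had enough counts to be tested in both experiments.

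The study examined EHMT1 (GLP), a histone H3 lysine 9 methyltransferase whose lysines K450 and K451 were studied as substrates of LSD1, and asked what loss or induction of EHMT1 does to gene expression. It reported that LSD1 acted in vitro on a peptide methylated at K450 and not on one methylated at K451. In the siRNA experiment, LNCaP cells received 20 nM of a non-targeting pool (siNTC) or a pool against EHMT1 (siEHMT1) for 2 days, with 2 samples in each group. In the stable-line experiment, 4 LNCaP lines carried a lentiviral, tetracycline-inducible, V5-tagged EHMT1 in the pLIX_403 vector, as WT, K450R, K451R or K450RK451R. Each was kept without doxycycline (labelled Veh) or given 0.25 µg/mL doxycycline (Dox) for 2 days, with 2 columns of counts for each condition. All 4 lines were puromycin-selected and kept their own EHMT1 gene, each form of EHMT1 is represented by 1 line, and no line with an empty vector is among the groups, so an effect of doxycycline itself and an effect of induced EHMT1 cannot be told apart.

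LSD1, the product of KDM1A, removes methyl groups from mono- and dimethylated histone H3 lysine 4 with a flavin cofactor, and it can also act on proteins other than histones. On nucleosomes it works within the CoREST complex, in which an RCOR scaffold holds the demethylase together with the deacetylases HDAC1 or HDAC2, while PHF21A reads unmethylated lysine 4 and HMG20B and ZMYM2 are further subunits. The complex is known as a repressor recruited by transcription factors such as REST, and in prostate cells LSD1 also works beside the pioneer factor FOXA1.

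The lysines changed in the mutant lines lie within exon 8 of 27 of EHMT1 on the forward strand. They are numbered on a coding sequence of 1298 codons in the reference annotation. The reference sequence of codons 446 to 455, at chr9:140648710-140648739 (GRCh37), is shown because it holds the site at which the mutants differ from WT. The codons of K450 and K451 are in capitals, and both are AAG, a lysine codon.
EHMT1 codons 446 to 455: cggagaagtagaAAGAAGcccagcggtgcc

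The siRNA samples held 5593400 to 12438006 counts each. The 2 columns of each stable-line condition differed by no more than counting noise (chi-square divided by its degrees of freedom, 0.995 to 1.02), so they were summed and counted as 1 sample of 8436791 to 12407739 counts; the 2 siRNA samples of a group differed far more than that, at 61.6 for siNTC and 13.4 for siEHMT1, or 6.58 and 6.17 without 2 pseudogenes that resemble ribosomal RNA. All 10 luminal prostate markers were detected in every sample, at 168 CPM (counts scaled to library size) or more. Of 7 measured markers of fibroblasts, leukocytes and basal epithelium, 4 (COL1A2, PTPRC, KRT5 and TP63) were at 0 in every sample. VIM was at 10.998 to 12.1 CPM in the siRNA samples and at 59.8 to 80.1 CPM in the lines, COL1A1 at 14.3 to 16.3 and at 31.4 to 42.0 CPM, and COL3A1 at 1.68 CPM or less.

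Of the 10 members, KDM1A varied least between conditions in TMM-scaled CPM; as in any bulk sample, a change in RNA per cell and a change in the mix of cells cannot be told apart. KDM1A (ENSG00000004487, chr1:23345936-23410182, forward strand) was at 114 and 111 CPM in the siNTC samples and at 107 and 107 CPM in the siEHMT1 samples. In the lines it was at 103, 114, 106 and 104 CPM under Veh and at 105, 105, 106 and 114 CPM under Dox, in the order WT, K450R, K451R and K450RK451R. The Veh and Dox values covered the same range, and the highest condition exceeded the lowest by 1.11-fold. KDM1B (ENSG00000165097), which encodes the related flavin-dependent demethylase LSD2, was at 30.1 and 27.2 CPM with siNTC and at 28.6 and 26.5 CPM with siEHMT1. Its levels in the lines were 27.7, 27.7, 28.4 and 28.5 CPM under Veh and 27.1, 23.2, 24.5 and 29.1 CPM under Dox. The lowest KDM1B values were thus those of the K450R and K451R lines with Dox, and the groups overlapped in both experiments.

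**Figure D1:**
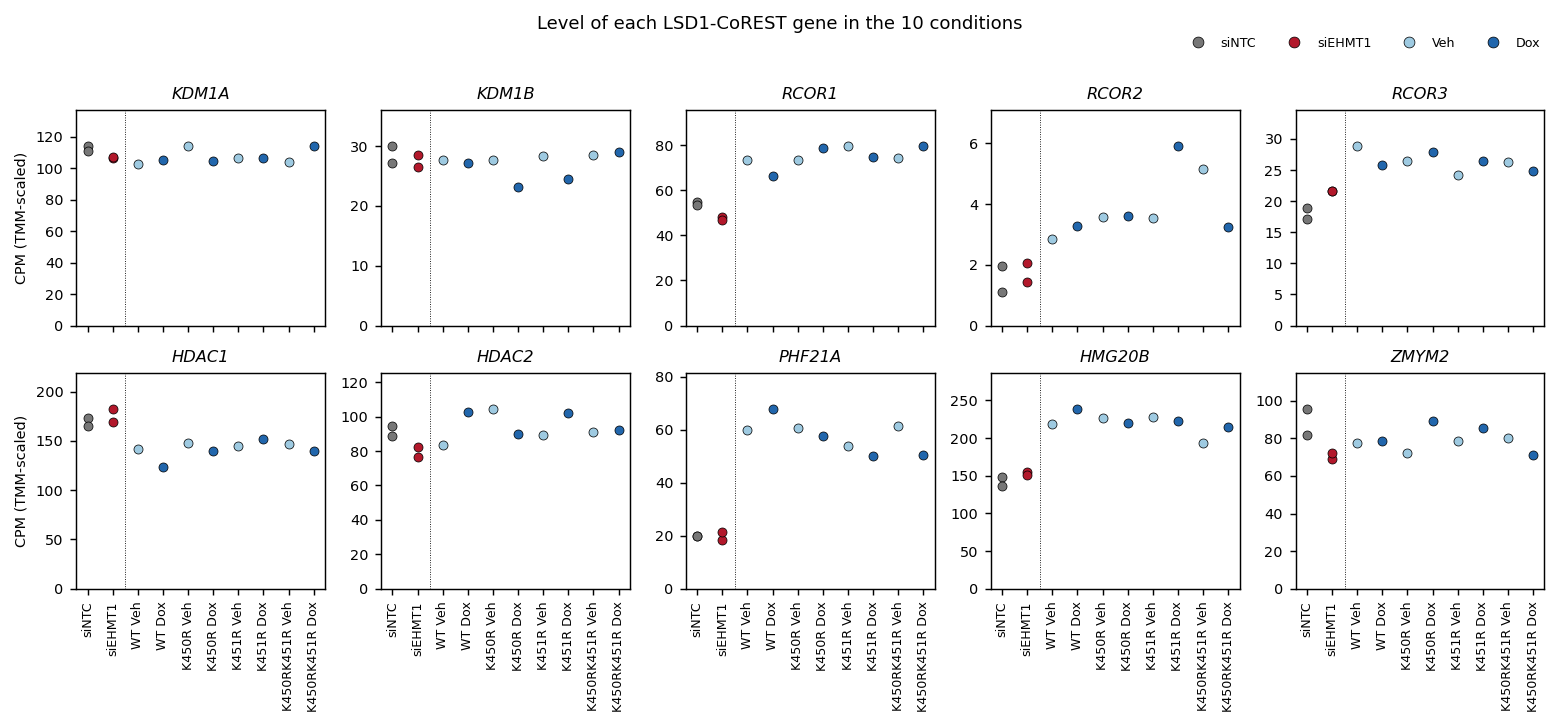
Level of each member in CPM (vertical axes from 0, TMM-scaled over all samples) in the 10 conditions; each point is 1 siRNA sample or 1 summed stable-line condition, and the dotted line separates the experiments. KDM1A stays between 103 and 114 CPM throughout, whereas PHF21A is near 20 CPM in the siRNA samples and at 50.0 to 67.9 CPM in the lines.

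Among the scaffolds, RCOR1 (ENSG00000089902), which encodes CoREST itself, was at 54.6 and 53.3 CPM with siNTC and at 48.1 and 46.7 CPM with siEHMT1. It was at 73.3, 73.3, 79.8 and 74.2 CPM under Veh and at 66.3, 78.6, 74.8 and 79.6 CPM under Dox. RCOR3 (ENSG00000117625), an alternative scaffold, was at 18.9 and 17.1 CPM with siNTC and at 21.7 and 21.6 CPM with siEHMT1. The siRNA groups therefore did not overlap for either gene, RCOR1 being lower and RCOR3 higher with siEHMT1. Of all genes tested, 18.6% lay lower in this way and 20.7% higher. In the lines RCOR3 was at 24.2 to 28.9 CPM under Veh and at 24.9 to 27.9 CPM under Dox. RCOR2 (ENSG00000167771), best known from stem and neural cells, was near the limit of detection at 1.10 to 2.07 CPM in the siRNA samples and at 2.87 to 5.93 CPM in the lines.

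Of the deacetylases, HDAC1 (ENSG00000116478) was at 173 and 165 CPM with siNTC, 183 and 169 CPM with siEHMT1, 142 to 147 CPM under Veh and 124 to 152 CPM under Dox. HDAC2 (ENSG00000196591) was at 94.5 and 88.7 CPM with siNTC and at 82.4 and 76.7 CPM with siEHMT1. Its levels in the lines were 83.3, 105, 89.3 and 91.2 CPM under Veh and 102, 89.9, 102 and 92.0 CPM under Dox. HDAC2 was lower in both siEHMT1 samples than in either siNTC sample, as were 18.6% of all genes tested. In the lines its Veh and Dox ranges overlapped. The processed pseudogene HDAC1P2 took 4 to 44 counts a sample, at most 2.97% of the HDAC1 count.

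PHF21A (ENSG00000135365) was at 19.9 and 19.8 CPM with siNTC and at 18.3 and 21.3 CPM with siEHMT1, and in the lines it was at 60.0, 60.5, 53.8 and 61.5 CPM under Veh and at 67.9, 57.5, 50.0 and 50.5 CPM under Dox. HMG20B (ENSG00000064961) was at 149 and 136 CPM with siNTC, 155 and 152 CPM with siEHMT1, 194 to 228 CPM under Veh and 215 to 239 CPM under Dox. ZMYM2 (ENSG00000121741) was at 82.0 and 95.7 CPM with siNTC and at 68.9 and 72.2 CPM with siEHMT1. The ZMYM2 groups did not overlap, with siEHMT1 lower, as in 18.6% of all genes tested. The gap between the nearest samples was smaller than the gap between the 2 siNTC samples. In the lines ZMYM2 was at 72.3 to 80.2 CPM under Veh and at 71.0 to 89.1 CPM under Dox. HMG20B overlaps the coding gene MFSD12 on the opposite strand, and non-coding genes on the opposite strand overlap KDM1A, HDAC2 and PHF21A; the strand setting used in counting is not given, so reads of such partners cannot be told apart.

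Set beside each other per transcript length, as counts scaled by library size and by the length of all annotated exons (FPKM), the members differed by up to 50.9-fold in their medians over the 10 conditions. HMG20B stood first at a median of 56.9 FPKM (37.0 to 61.9 over conditions), followed by HDAC1 at 36.8 FPKM (31.2 to 44.3) and RCOR1 at 11.9 FPKM (7.65 to 12.9). HDAC2, KDM1A, ZMYM2 and KDM1B came next, at medians of 5.96, 5.80, 5.77 and 4.93 FPKM. The ranges of HDAC2, KDM1A and ZMYM2 overlapped, from 5.18 to 6.82 FPKM, so the order among these 3 genes is not larger than their spread over conditions. RCOR3 at 2.86 FPKM, PHF21A at 2.22 FPKM and RCOR2 at 1.12 FPKM were the lowest. The order depended in part on the length used, because the exons of all annotated transcripts of KDM1A add up to 18325 bases and its longest transcript to 5786. With the longest transcript, KDM1A moved from the fifth to the third place at 18.4 FPKM, while HMG20B and HDAC1 stayed first and second and RCOR2 stayed last.

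**Figure D2:**
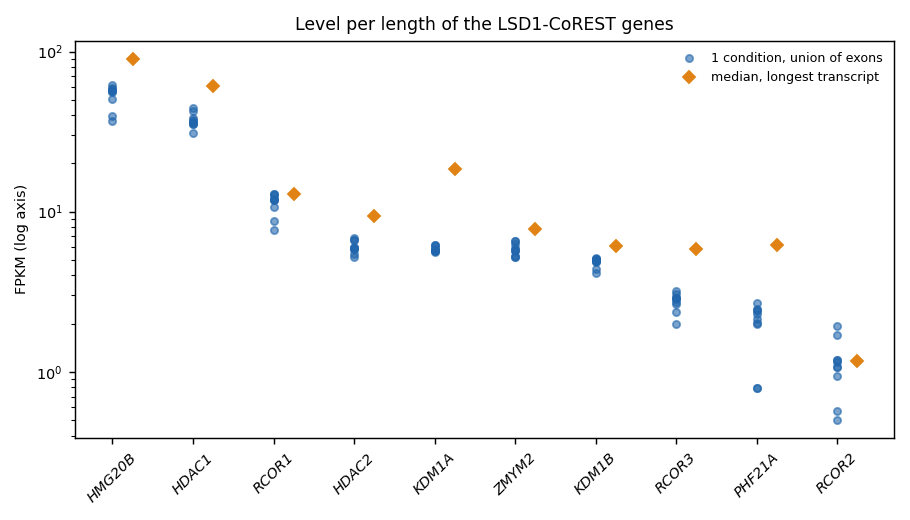
FPKM (log axis) of the 10 members, ordered by their median; circles are the 10 conditions computed with the union of exons, and diamonds are the median with the longest transcript. HMG20B and HDAC1 lead and RCOR2 is lowest with either length, and KDM1A rises from 5.80 to 18.4 FPKM with the longest transcript.

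Within the families, the paralogue that led was the same in every condition. KDM1A made up 52.8 to 58.1% of the summed FPKM of KDM1A and KDM1B, with a median of 54.5% that became 75.4% with longest-transcript lengths. RCOR1 made up 71.3 to 77.8% of the RCOR family, RCOR3 15.97 to 22.5% and RCOR2 4.48 to 11.5%, and with longest-transcript lengths the medians moved from 74.3 to 63.6% for RCOR1 and from 17.9 to 29.2% for RCOR3. HDAC1 made up 82.4 to 89.5% of the HDAC1 and HDAC2 sum. The HDAC2 share was lowest with siEHMT1, at 10.5%, and highest in the WT line with Dox, at 17.6%.

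The ratio of EHMT1 RNA to KDM1A RNA differed widely between conditions by design, because EHMT1 was the gene silenced or induced. Each unit of KDM1A FPKM was matched by 0.587 units of EHMT1 with siNTC and by 0.218 with siEHMT1. In the lines this ratio was 0.578 to 0.715 under Veh and 4.92 to 6.81 under Dox, and since KDM1A moved by 1.11-fold at most, the shift came from EHMT1. EHMT1 counts in the lines include the introduced coding sequence, whose length is shorter than the exon union used for FPKM.

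The siRNA comparison asked whether less EHMT1 was accompanied by other levels of the LSD1 complex genes, and no member passed the test. EHMT1 itself was at 82.4 and 77.7 CPM with siNTC and at 27.6 and 28.8 CPM with siEHMT1, a log2 fold change of −1.51 (SE 0.107, adjusted p = 1.48e-07, edgeR quasi-likelihood test with Benjamini-Hochberg adjustment). Of 14532 genes tested, 0.131% passed an adjusted p of 0.05 (0.0619% higher and 0.0688% lower), and 0 of the 10 members did so with edgeR, DESeq2 or limma-voom, while at an unadjusted p under 0.05 the members that passed were 2, ZMYM2 and HDAC2, both lower, beside 9.55% of all genes and 5.09% in that direction. The median log2 fold change of the members was −0.04, beside −0.00 for all genes tested. In 6 of the 10 members the samples of the groups did not overlap, against 39.4% of all genes tested; KDM1A, RCOR1, HDAC2 and ZMYM2 lay lower in both siEHMT1 samples, as did 18.6% of all genes, and RCOR3 and HMG20B higher, as did 20.7%.

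ZMYM2 had the lowest p of the members, with a log2 fold change of −0.34 (SE 0.104, 95% interval −0.56 to −0.12, adjusted p = 0.243 by the edgeR quasi-likelihood test with Benjamini-Hochberg adjustment). HDAC2 followed at −0.21 (interval −0.41 to −0.01, adjusted p = 0.488, same edgeR test), and RCOR1 was at −0.20 (interval −0.42 to 0.02). These estimates lie on the lower side, and none of them passed the adjusted threshold. On the higher side, RCOR3 was at 0.25 (interval −0.05 to 0.56) and HMG20B at 0.09 (interval −0.09 to 0.28). For KDM1A the log2 fold change was −0.08 with an interval of −0.27 to 0.11, and the intervals of KDM1B, HDAC1 and PHF21A, at −0.34 to 0.20, −0.14 to 0.23 and −0.32 to 0.31, reached no further than 0.34 from 0. RCOR2, with few counts, had an interval of −0.86 to 1.00, so even a large change was not detectable at this depth. The mitochondrial share of counts moved with the groups, at 22.3 and 24.9% in siNTC and 26.9 and 28.2% in siEHMT1, and its part in these differences was not tested.

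**Figure D3:**
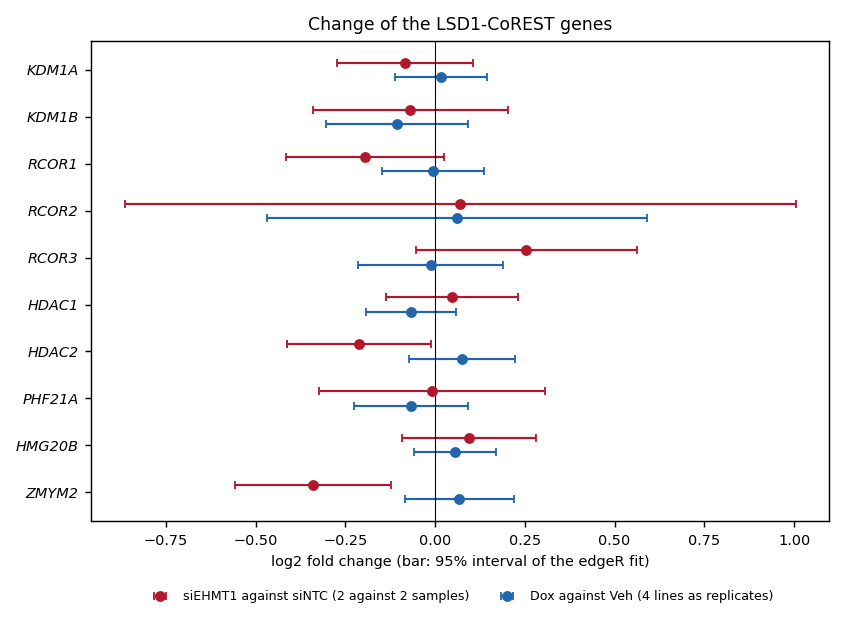
Log2 fold change of each member (horizontal axis) with its 95% interval from the edgeR fit, for siEHMT1 against siNTC (red, 2 against 2 samples) and Dox against Veh (blue, 4 lines). All Dox intervals span 0, and in the siRNA comparison the intervals of ZMYM2 and HDAC2 lie below 0 before adjustment over all genes.

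Genes around the complex also held few calls in the siRNA comparison, in which 0.131% of all genes tested passed. At that share, lists this short would hold few calls or none, so their lack of calls says little. Of 24 partner and recruiter genes, 19 had enough counts to be tested and 1, the silenced gene EHMT1 itself, passed the adjusted threshold. GSE1, a subunit found with some CoREST complexes, was at 170 and 161 CPM with siNTC and at 126 and 146 CPM with siEHMT1, a log2 fold change of −0.30 (adjusted p = 0.274, edgeR quasi-likelihood test with Benjamini-Hochberg adjustment). REST, the zinc finger repressor that recruits CoREST to neuronal genes, was at 70.4 and 74.0 CPM with siNTC and at 58.4 and 60.0 CPM with siEHMT1, a log2 fold change of −0.29 (adjusted p = 0.319, same edgeR test). For both genes the siEHMT1 samples lay below the siNTC samples, as for 18.6% of all genes tested, and neither passed the adjusted threshold. Both were named for the smallest p of this list after EHMT1 on these same values, so their separation adds no support. Of 30 listed REST target genes, 11 could be tested and 0 passed, also at an unadjusted p under 0.05; the smallest p belonged to MAPK8IP2 (−0.28) and STMN3 (0.54), with an adjusted p of 0.563 and 0.610 in the same edgeR test.

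The other HDAC1 and HDAC2 complexes, NuRD and SIN3, held no call with siEHMT1, beside 0.131% of all genes tested. Of their 24 listed subunits, all tested, SAP30L had the largest estimate at 0.51 (adjusted p = 0.282) and SAP18 followed by p at 0.16 (adjusted p = 0.636), by the edgeR quasi-likelihood test with Benjamini-Hochberg adjustment. Among 17 tested genes of H3K4 methylation, RBBP5, a subunit of the H3K4 methyltransferase complexes, was at −0.23 and KDM6A at −0.16, with an adjusted p of 0.589 and 0.605 in that edgeR test. Among 7 tested genes of flavin amine oxidases and riboflavin supply, SMOX was at −0.28 and SLC52A2 at −0.08, with an adjusted p of 0.831 and 0.851.

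In the stable lines, Dox raised EHMT1 strongly and left the members without a call. EHMT1 went from 78.5, 87.6, 74.5 and 90.2 CPM under Veh to 827, 862, 744 and 679 CPM under Dox, in the order WT, K450R, K451R and K450RK451R, a log2 fold change of 3.23 over the 4 lines (SE 0.069, adjusted p = 1.02e-23, edgeR quasi-likelihood test with line as a block and Benjamini-Hochberg adjustment). Of 14105 genes tested, 2.11% passed the adjusted threshold and 14.4% an unadjusted p under 0.05. Of the 10 members, 0 passed either, 0 passed the adjusted threshold with DESeq2 or limma-voom, and the lowest adjusted p was 0.667. Their median log2 fold change was 0.01, beside 0.00 for all genes tested.

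The estimates of the members over the 4 lines ran from −0.11 for KDM1B (95% interval −0.31 to 0.09) to 0.08 for HDAC2 (interval −0.07 to 0.22). KDM1A was at 0.02 (interval −0.11 to 0.14) and RCOR1 at −0.01 (interval −0.15 to 0.14). Leaving RCOR2 aside, the bound farthest from 0 was the lower one of KDM1B. A mean change over the 4 lines beyond a log2 of 0.31 thus lies outside the interval of each of those 9 genes. The lines carry different forms of EHMT1, so these intervals do not bound a change in a single line. RCOR2 was at 0.06 with an interval of −0.47 to 0.59. Of the 10 members, 0 had the same sign of Dox over Veh in all 4 lines, against 20.8% of all genes tested. Libraries with Dox held a smaller mitochondrial share than Veh in 3 lines, at 9.76 against 13.0% in WT, 10.4 against 14.4% in K451R and 8.04 against 12.3% in K450RK451R, and a larger one in K450R, at 13.7 against 12.1%; the part of this in the values was not tested.

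Within single lines there is 1 sample a condition, so the folds below have no replicate check, and their 95% intervals (exact Clopper-Pearson, on the share of counts) cover counting error only. RCOR2 was the member that passed 1.5-fold, which 11.3% of genes did in WT, 13% in K450R, 11.6% in K451R and 13.9% in K450RK451R. The shares were smaller among genes with a mean of at least 100 counts per condition, which RCOR2 does not reach, at 1.76, 2.65, 2.61 and 3.08% in that order of lines. In K451R it went from 28 to 71 counts, a fold of 1.70 (1.08 to 2.73), and in K450RK451R from 50 to 41 counts, a fold of 0.626 (0.404 to 0.966). The folds of these 2 lines were thus on opposite sides of 1, and in WT and K450R the folds were 1.13 and 1.02. Among the 71 counts with Dox in K451R, 48 were in one column and 23 in the other, and without the first column the fold was 1.19. With 1 column left out, the RCOR2 fold also ran from 0.518 to 0.764 in K450RK451R and from 0.729 to 1.63 in K450R, so in these 3 lines its side of 1.5-fold depended on the column.

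**Figure D4:**
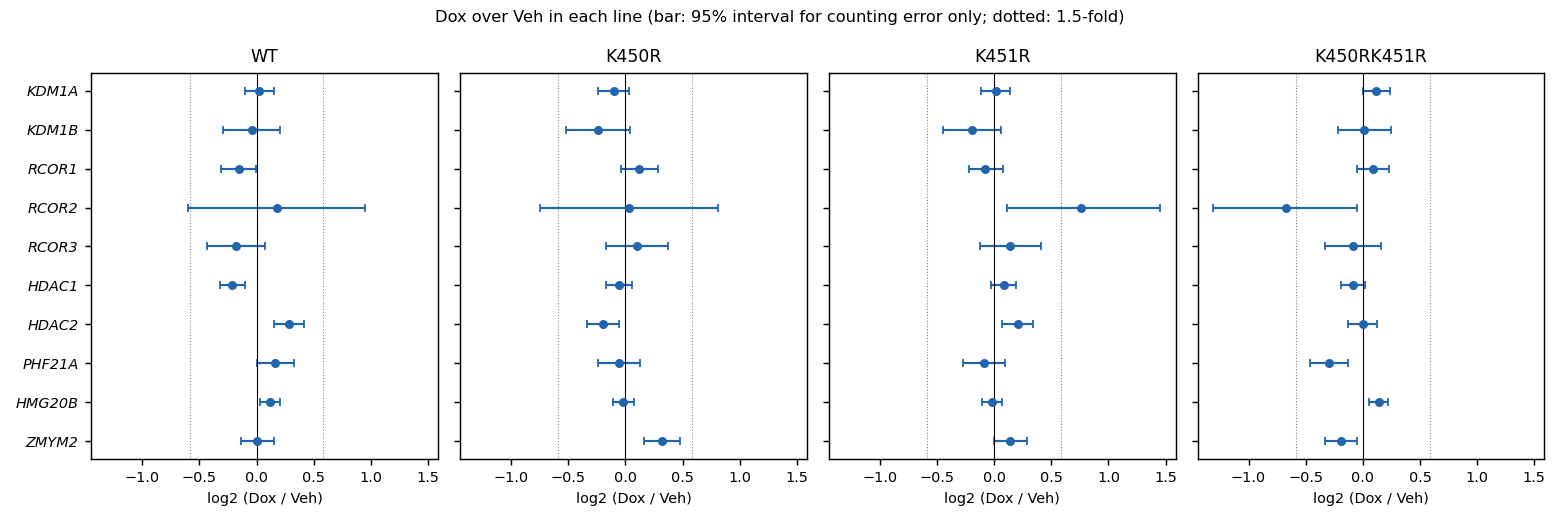
Log2 ratio of Dox over Veh for each member in the WT, K450R, K451R and K450RK451R lines, with bars for the 95% interval of counting error and dotted lines at 1.5-fold. RCOR2 passes the dotted lines in K451R (1.70-fold) and K450RK451R (0.626-fold), and the other 9 members stay inside them in each line.

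HDAC2 and HDAC1 had folds on opposite sides of 1 in the WT line. HDAC2 had a fold of 1.22 (1.11 to 1.34) in WT, 0.873 (0.792 to 0.963) in K450R, 1.15 (1.05 to 1.27) in K451R and 0.999 (0.914 to 1.09) in K450RK451R. HDAC1 was at 0.864 (0.799 to 0.934) in WT and at 0.963, 1.06 and 0.942 in the 3 mutant lines. ZMYM2 was at 1.00 in WT, 1.25 (1.12 to 1.40) in K450R, 1.10 in K451R and 0.877 (0.796 to 0.967) in K450RK451R. Several of these counting intervals leave out a fold of 1, but the directions differ between lines, and how far 2 cultures of 1 line would differ was not measured.

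PHF21A had its highest fold in WT and its lowest in the double mutant, with 1.12 (1.00 to 1.25) in WT, 0.964 in K450R, 0.941 in K451R and 0.814 (0.726 to 0.911) in K450RK451R. Its Dox effect in K450RK451R was 0.46 below that in WT on the log2 scale, a difference that no test could be run on. For HDAC2 the effect in K450R was 0.48 below that in WT. KDM1A folds were 1.02 (0.932 to 1.11), 0.931 (0.849 to 1.02), 1.01 (0.926 to 1.10) and 1.08 (1.00 to 1.18), so no line showed a change of KDM1A beyond counting error. HMG20B was at 1.08 in WT, 0.988 in K450R, 0.989 in K451R and 1.10 in K450RK451R. RCOR1 ranged from 0.897 in WT to 1.09 in K450R, RCOR3 from 0.882 in WT to 1.10 in K451R and KDM1B from 0.849 in K450R to 1.01 in K450RK451R.

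Among the partner genes, ZMYM3 fell with Dox. ZMYM3 (ENSG00000147130, chrX:70459474-70474996, reverse strand) encodes a zinc finger relative of ZMYM2 that is found with LSD1 and CoREST. It was at 46.3, 41.4, 39.4 and 31.7 CPM under Veh and at 24.9, 30.0, 25.9 and 26.7 CPM under Dox. Dox was below Veh in each line, and 20.8% of all genes tested had the same direction in all 4 lines. ZMYM3 was named for passing the test below on these same values, so their separation adds no support to it. The fold of Dox over Veh was 0.534 (0.453 to 0.627) in WT, 0.736 in K450R, 0.665 in K451R and 0.833 (0.712 to 0.976) in K450RK451R.

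Over the 4 lines the log2 fold change of ZMYM3 was −0.55 (SE 0.098, 95% interval −0.75 to −0.35, adjusted p = 0.0014, edgeR quasi-likelihood test with Benjamini-Hochberg adjustment), while 1.51% of all genes tested passed in this direction. Without line as a block the estimate was −0.56 and the edgeR adjusted p was 0.101, which ends the call. With siEHMT1, ZMYM3 was at 20.9 and 25.4 CPM against 20.6 and 19.3 CPM with siNTC, a log2 fold change of 0.21 (adjusted p = 0.693, same edgeR test). The gene overlaps NONO on the opposite strand, and how far NONO reads enter its counts was not tested. EHMT1 and ZMYM3 were the calls among the 20 partner genes tested; REST was at 0.08 (interval −0.05 to 0.20) and GSE1 at −0.05 (interval −0.17 to 0.07).

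**Figure D5:**
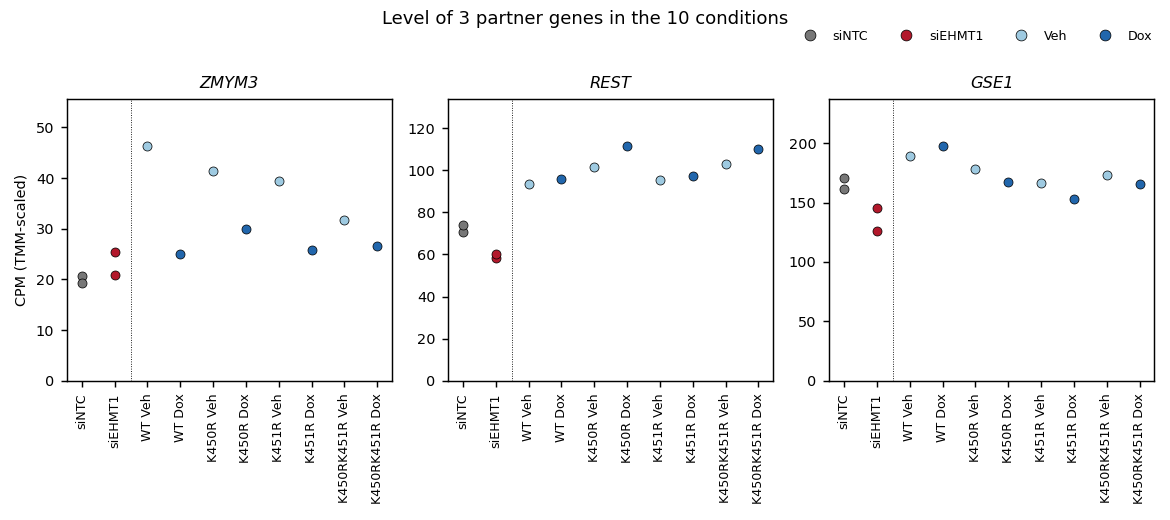
Level in CPM (axes from 0, TMM-scaled) of ZMYM3, REST and GSE1 in the 10 conditions; each point is 1 siRNA sample or 1 summed stable-line condition. ZMYM3 is lower with Dox than with Veh in each of the 4 lines (24.9 to 30.0 against 31.7 to 46.3 CPM). REST and GSE1 are lower in both siEHMT1 samples than in both siNTC samples, as are 18.6% of all genes tested.

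For NuRD and SIN3, 0 of the 24 subunits passed the adjusted threshold with Dox, beside 2.11% of all genes tested. At an unadjusted p under 0.05, 5 were lower, beside 7.55% of all genes in that direction. SAP30, a SIN3 subunit, was at −0.33 (adjusted p = 0.0715) and CHD4, the ATPase of NuRD, at −0.17 (adjusted p = 0.118), by the edgeR quasi-likelihood test with Benjamini-Hochberg adjustment. Of the H3K4 genes, KDM5C, a demethylase of trimethylated lysine 4, was at −0.13 and KMT2C at −0.14, with an adjusted p of 0.259 and 0.296 in that edgeR test, and 0 of 17 passed. The flavin list also held 0 calls among 7, with MAOA at −0.08 (adjusted p = 0.521) and SLC52A2 at 0.10 (adjusted p = 0.609, same edgeR test). Of 10 REST target genes tested 0 passed, and L1CAM was at −0.45 and MAPK8IP2 at 0.18, with an adjusted p of 0.409 and 0.545.

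Among the luminal markers is FOXA1, beside which LSD1 is known to act. FOXA1, the protease gene TMPRSS2 and the homeobox gene HOXB13 were higher with Dox at an adjusted p under 0.05, as were 0.603% of all genes tested. Their log2 fold changes were 0.36, 0.22 and 0.19 (edgeR quasi-likelihood test, adjusted p = 0.000418 for FOXA1, 0.0177 for TMPRSS2 and 0.0492 for HOXB13). Without line as a block the edgeR adjusted p was 0.278, 0.337 and 0.304, which ends these calls, and TMPRSS2 and HOXB13 also lost theirs without K450R, K451R or K450RK451R (adjusted p = 0.0915 to 0.223), HOXB13 also without WT (0.0689) and with DESeq2 (0.0690). At an unadjusted p under 0.05 (edgeR quasi-likelihood test with line as a block), 5 of the 10 luminal markers were higher and 3 lower. Over all genes tested, 14.4% passed it in either direction. The lower ones were KRT8 (−0.20, adjusted p = 0.0602), KRT18 (−0.16, 0.150) and KLK2 (−0.11, 0.308). The summed level of all 10 luminal markers was 11975 to 13046 CPM under Veh and 12560 to 13553 CPM under Dox, ranges that overlap. KLK3, at 7460 to 8639 CPM in the lines, made up most of these sums, with a log2 fold change of 0.02. The markers of other cell types summed to 102 to 113 CPM under Veh and 99.5 to 112 CPM under Dox.

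Between the 2 experiments some members were at like levels and others were higher in the lines. The mean of the 4 Veh lines over the mean of the 2 siNTC samples was 2.97 for PHF21A, 2.48 for RCOR2, 1.52 for HMG20B, 1.47 for RCOR3 and 1.39 for RCOR1. For KDM1A, KDM1B, HDAC1, HDAC2 and ZMYM2 it lay between 0.860 and 1.01. Of the members, PHF21A, RCOR2 and HMG20B were past 1.5-fold. Ratios past 1.5-fold in either direction were common, with 45.1% of 13617 genes, and 21.9% were past 2-fold. The luminal markers summed to 5922 and 6027 CPM in the siNTC samples and the measured markers of other cell types to 27.2 and 27.8 CPM, both below the Veh sums given above, and the part of this in the ratios was not tested. The cells, the treatments and the libraries all differ between the experiments and cannot be told apart, so these ratios carry no test.

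Over the 8 stable-line conditions, genes whose log2 CPM ran much like that of KDM1A, among 9144 genes with a mean of at least 100 counts, were MRPL39 (Pearson r of 0.942), LMBRD2 (0.928), SNRPA (0.917) and NCDN (0.916). KDM1A varied by 1.11-fold over these conditions, close to its counting error, and the 8 points share lines in pairs, so the values describe these libraries and no more. Among the members r with KDM1A was highest for HDAC2, at 0.465, and lowest for ZMYM2, at −0.704.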

How the data were processed

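Total RNA libraries (stranded TruSeq) were sequenced by the authors as 51-nt single-end reads; the submitters' processing notes name FastQC 0.11.9, STAR 2.7.2, featureCounts 1.6.4 and hg19. The deposited values are raw counts per gene. The annotation release and the strand setting are not given in the sources used here.

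Genes with low counts were removed (filterByExpr), libraries were scaled by TMM, and edgeR 4.0.16 (R 4.3.3) quasi-likelihood tests, two-sided, were run on the whole table with Benjamini-Hochberg adjustment and a threshold of 0.05. The siRNA samples were fitted alone. Stable-line columns were summed per condition, since they agree within sampling noise, and fitted with line as a block. The labels do not say that siRNA samples came from separate cultures, so p-values measure the spread between these samples, which may be technical. CPM values share 1 TMM scaling over all samples. FPKM used exon lengths from GENCODE 44 on GRCh37.

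The members and gene lists were chosen with earlier results of these data known. Named genes were all members, listed genes past the threshold (at most 5 a list, those with the largest change), otherwise the 2 with the smallest p, and the 5 most like KDM1A; some genes that this rule names are not reported here. Tests were checked on simulated data. Same-numbered siRNA samples did not deviate together (r = −0.002 over 14532 genes), so they were not paired. Alternatives were DESeq2 1.42.0, limma 3.58.1, other scalings and filters, blocks and samples left out; the transcript length used for paralogue shares was added after seeing the data.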

Additional observations from a re-analysis of the deposited data

Results flagged for a closer look

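Of 30 groups of 4 lines (10 members under Veh, under Dox and as Dox over Veh), 2 held a value that stood apart from the other 3 by Dixon's test, and chance flags about 1 in 20 groups. RCOR1 under Veh was at 79.8 CPM in K451R, where the other lines were at 73.3 to 74.2 CPM. RCOR2 under Dox was at 5.93 CPM in K451R, where the other lines were at 3.25 to 3.60 CPM; that value rests on 71 counts.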

How the results depend on the processing

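No member passed the adjusted threshold in either comparison under any alternative run; the lowest adjusted p was 0.0667 for ZMYM2 without siNTC replicate 1 (edgeR) and 0.183 for HMG20B with Dox under library totals. RCOR2 is limited by its depth. Of 130 siRNA values of members 124 kept their direction, and of 150 Dox values 134; those that turned were at most 0.19 and 0.22 in size, both of RCOR2. PHF21A with siEHMT1 was 0.015 under upper-quartile scaling, 0.017 under library totals and −0.13 to 0.10 with 1 sample left out, where RCOR2 ran from −0.19 to 0.61 and HDAC1 from −0.0049 to 0.10. With Dox, RCOR1 was 0.0090 under upper-quartile scaling, 0.078 under library totals, 0.0016 with no filter and 0.00038 with no line block; RCOR3 was 0.0014 and 0.070 under the first 2 of these, and under library totals HDAC1 was 0.016 and PHF21A 0.014. With 1 line left out, the Dox values ran from −0.045 to 0.044 for RCOR1, −0.061 to 0.045 for RCOR3, −0.015 to 0.15 for ZMYM2, −0.22 to 0.37 for RCOR2, −0.023 to 0.054 for KDM1A and −0.15 to 0.0096 for PHF21A. Library totals moved the median of all genes by 0.13 in K451R and 0.14 in K450RK451R.

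Counts of genes called moved more. With siEHMT1, 9 were higher and 10 lower; lower calls were 6 with limma-voom, 5 with upper-quartile scaling and 4 with no filter, and higher calls were 15 under library totals. The replicate block, although the numbers do not pair the samples, gave 56 higher and 62 lower. With 1 sample left out, where the lone sample is assumed to vary like the other group, they were 20 to 41 higher and 18 to 82 lower. With Dox, 85 were higher and 213 lower, and this became 23 and 114 with DESeq2, 326 and 108 under library totals, so that the share of higher calls turned, 873 and 1027 with 16 columns and a replicate block, 927 and 1073 without that block, and 1 and 3 with no line block. With 1 line left out there were 20 to 181 higher (lowest without K451R) and 94 to 320 lower. Members past 1.5-fold within a line numbered 0 to 1 with 1 column left out, in K450R, K451R and K450RK451R, and 0 in K450RK451R under library totals. The highest over the lowest median FPKM became 77.2-fold with longest-transcript lengths. The causes were not tested.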
